A study of Mus musculus with 9 samples.

Results

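The genes described here are the D-type cyclins Ccnd1, Ccnd2 and Ccnd3, the kinases Cdk4 and Cdk6, and the CDK inhibitors Cdkn1a, Cdkn1b, Cdkn2a, Cdkn2b and Cdkn2c, which together set whether a cell passes from G1 into S phase. They were chosen by symbol, as the rows of the deposited count table that carry these names, and were 10 of its 55359 genes. All 10 passed the filter on low counts and were tested with the other genes, 14649 in all. In the standard account of G1, mitogens raise D cyclins, which bind CDK4 or CDK6 and phosphorylate the retinoblastoma family, so that E2F factors are released and S phase genes are transcribed. INK4 inhibitors (p16, p15, p18) bind CDK4 and CDK6 directly, whereas CIP/KIP inhibitors (p21, p27) bind cyclin and kinase complexes. Fat cell precursors leave the cell cycle as they differentiate, and several of these proteins also have roles in mature fat: cyclin D1 is known to repress and cyclin D3 to coactivate PPARγ, the master regulator of adipogenesis, and CDK4 acts in adipocyte insulin signalling.

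Bulk RNA-seq followed adipocyte precursors of mouse inguinal fat, which lies under the skin, as they became beige adipocytes, fat cells that can produce heat. The 9 libraries comprised 3 of non-induced cells (day 0), 3 of day 4 and 3 of day 8. Day 4 and day 8 cells had 2 days in a medium with dexamethasone, IBMX, indomethacin, insulin, triiodothyronine and rosiglitazone, an agonist of PPARγ, and were then kept without the first 3 of these. Cells of every day were lysed in the presence of cycloheximide and Triton X-100, and RNA came from the cleared supernatant, so that transcripts held in nuclei can be under-represented throughout. The strain, age and sex of the mice, and whether the replicates were separate cultures or animals, are not given in the labels, so the p-values here stand for the spread among these libraries and no more, and that spread may be technical. In bulk RNA, fewer cells with a transcript and less of it per cell cannot be told apart.

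Levels are given in CPM, counts per 1e6 of the library's total after TMM scaling, as mean ± SD with n = 3 libraries a day. Changes are on the log2 scale, each with the standard error (SE) of its estimate, from edgeR's quasi-likelihood test, and every adjusted p is Benjamini-Hochberg adjusted over all 14649 genes, with a threshold of 0.05. Day 4 and day 8 were each set against the same day 0 libraries, so those comparisons share their controls.

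Totals ran from 26387408 to 31474490 counts a library, and the least counted of the 10 genes, Cdk6, had 177 to 268 counts. Day 4 replicate 2 stood apart: it scored 13.7 on the first principal component, against 84.6 and 69.5 for day 4 replicates 1 and 3, -138 to -135 at day 0 and 72.7 to 92.0 at day 8. Its summed level of 8 mature adipocyte markers was 21276 CPM, against 38716 and 34482 CPM in the other day 4 libraries. For 7 adipocyte precursor markers the sum was 1865 CPM in that library, against 770 and 854 CPM, and for 10 mitosis markers 99.4 CPM, against 66.0 and 72.8 CPM. At day 0 these sums were 312 to 392, 1379 to 1590 and 109 to 135 CPM, and at day 8 they were 28584 to 30300, 551 to 782 and 28.1 to 51.0 CPM. The changes of the 10 genes that involve day 4 are therefore given with and without that library, as are their summed levels. The precursor markers Dpp4 and Pi16 were low or near 0 at day 0. The precursor sum does not give the direction of each marker. At day 4 against day 0, 3 of the 6 tested passed the threshold as higher (Cd34, Ly6a and Dlk1) and 2 as lower. Of all tested genes 28.6% and 26% did so. Without day 4 replicate 2 the marker counts were 2 and 2. Macrophage markers summed to 9.40 to 85.3 CPM, endothelial markers to 1.81 to 15.5 CPM and lymphocyte markers to at most 0.404 CPM over the 9 libraries, and their part in the results was not tested.

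Promoter sequence is shown for 3 of the genes, the kinase that fell and the inhibitors that rose at both later days. It comes from RefSeq, build GRCm38.p6, where windows of 250 bases before to 50 bases after the start were held for 8 of the 10 genes, with 12 windows between them among 32851 in all; Ccnd1 and Ccnd2 had none. Letters were searched on both strands, and a match is a description of the letters only. The Cdk4 stretch ends at the transcription start (chr10:127063285-127063534, plus strand), and capitals mark CACGTG, the E-box that MYC and its relatives can bind. CDK4 is a known MYC target. The Cdkn2c stretch is the 100 bases before the outer of its starts (chr4:109666757-109666856, minus strand), with capitals for the GC box GGGCGG. The Cdkn1a stretch lies before its outer start (chr17:29090729-29090978, plus strand), with capitals for the p53 core pair, which is CATG followed 6 bases later by CATG; Cdkn1a is the classic p53 target.
Cdk4: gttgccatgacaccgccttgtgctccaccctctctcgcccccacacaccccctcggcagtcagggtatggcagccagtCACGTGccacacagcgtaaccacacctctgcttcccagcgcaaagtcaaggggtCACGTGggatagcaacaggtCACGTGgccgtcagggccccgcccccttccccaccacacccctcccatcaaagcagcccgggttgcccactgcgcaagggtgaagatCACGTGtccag
Cdkn2c: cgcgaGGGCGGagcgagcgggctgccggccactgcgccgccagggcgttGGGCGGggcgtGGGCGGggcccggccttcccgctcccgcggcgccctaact
Cdkn1a: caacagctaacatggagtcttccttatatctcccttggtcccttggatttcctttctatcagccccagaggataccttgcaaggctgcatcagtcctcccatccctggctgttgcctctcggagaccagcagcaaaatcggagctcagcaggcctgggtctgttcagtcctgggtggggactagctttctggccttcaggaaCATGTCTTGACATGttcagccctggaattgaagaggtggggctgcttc
The Cdk4 window held 4 E-boxes, where 7.15% of all windows held at least 1 and 8 windows (0.0244%) held 4 or more. The Cdk6 window and the other Cdkn2c window held 1 E-box each. The whole Cdkn2c outer window held 4 GC boxes, as did or exceeded 5.49% of windows, while 35.7% held at least 1. The other Cdkn2c window held no GC box, and windows of Ccnd3, Cdk4, Cdkn1a, Cdkn1b, Cdkn2a and Cdkn2b also held it. The CCAAT box, also searched, was in 37.4% of all windows. Cdkn1b held 3, and 1 window each of Ccnd3, Cdkn2a and Cdkn2c held 1. The p53 core pair was found in 0.712% of windows and in no other window of these genes. The E2F letters TTTGGCGC or TTTCGCGC, the PPAR element of paired AGGTCA letters with 1 base between, and the CEBP palindrome TTGCGCAA were in none of the 12 windows, and in 0.813%, 0.0396% and 0.183% of all windows.

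At day 4 against day 0, 6 of the 10 genes changed, 3 higher and 3 lower, where 54.6% of all tested genes did (28.6% higher and 26% lower). Cdkn2c, Ccnd3 and Cdkn1a rose, and Cdk4, Cdkn1b and Cdkn2b fell. At day 8 against day 0, 9 changed, with the same 3 genes higher and Ccnd1, Ccnd2, Cdk4, Cdkn1b, Cdkn2a and Cdkn2b lower, where 63.4% of all genes did (33.5% higher and 29.9% lower). Cdk6 passed the test in neither. At day 8 against day 4, Ccnd1 and Ccnd2 fell and no gene rose, where 22.4% of all genes changed (11.7% higher and 10.8% lower). The median log2 change of the 10 genes was -0.26, -0.60 and -0.37 in the 3 comparisons, beside -0.01, 0.03 and 0.00 over all genes tested. Libraries of the days compared did not overlap for 7 genes at day 4 against day 0, 9 at day 8 against day 0 and 3 at day 8 against day 4, where 65.8%, 72.7% and 37% of all genes did not.

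The scaling of libraries bears on these directions. With total counts in place of TMM the median of all genes moved to -0.34 at day 4 and -0.33 at day 8 against day 0, and of the 10 genes 3 were then higher and 5 lower at day 4, and 1 higher (Cdkn2c) and 6 lower at day 8. Without day 4 replicate 2, 9 of the 10 genes changed at day 4 against day 0, 3 higher and 6 lower, and 5 fell at day 8 against day 4. Over all genes 9110 were then called at day 4 against day 0 (4560 higher and 4550 lower) and 3391 at day 8 against day 4, where all 9 libraries gave 7998 and 3285.

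**Figure D1:**
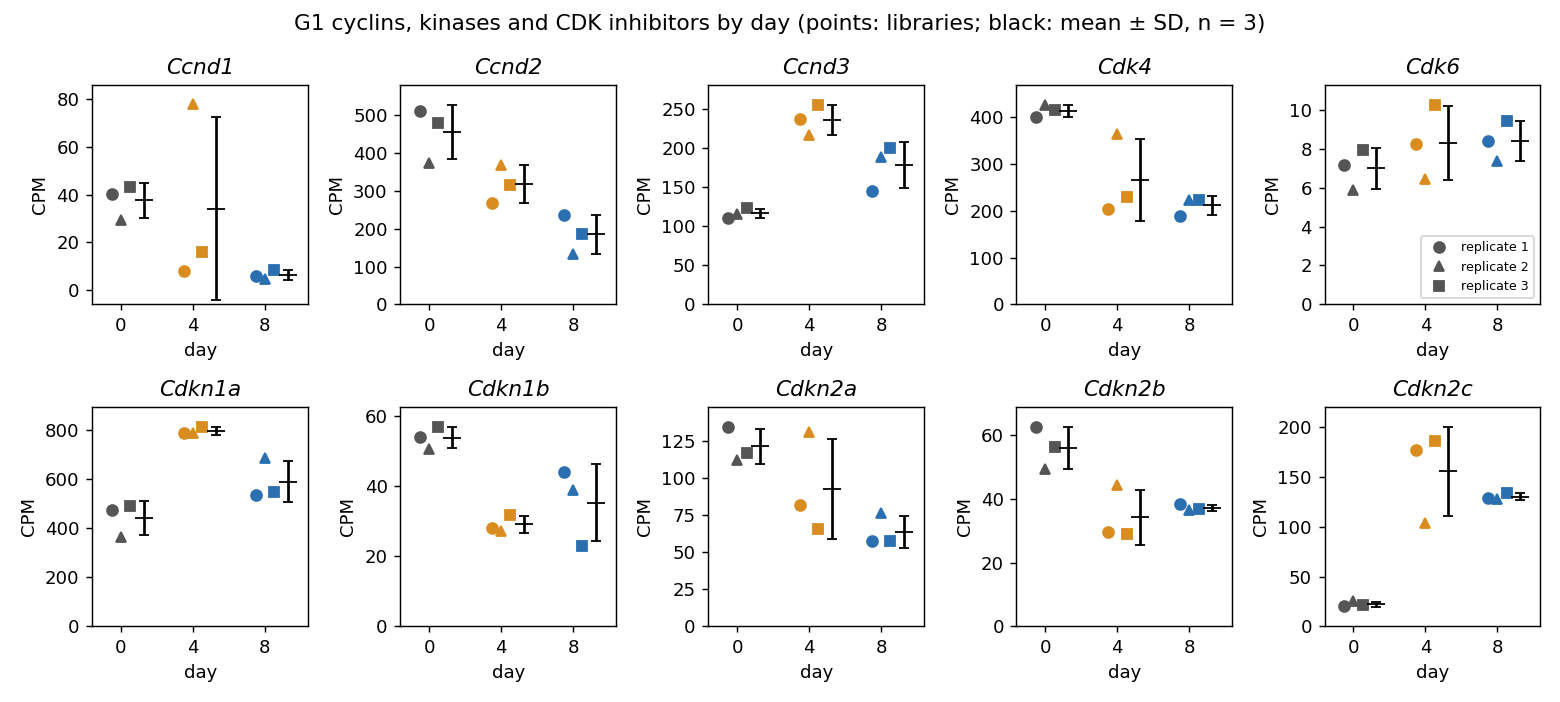
CPM (vertical axes, linear, of differing range) of the 10 genes at days 0, 4 and 8, with 1 point for each of the 9 libraries, shaped by replicate, and black bars for the mean ± SD of a day. The Cdkn2c libraries of day 0 lie at 20.4 to 25.2 CPM, below every library of the later days, and the Ccnd1 point at 78.2 CPM is day 4 replicate 2.

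The D cyclins, the regulatory subunits of the G1 kinases, went separate ways. Ccnd1 (cyclin D1, ENSMUSG00000070348, chromosome 7) had 40.1, 29.3 and 43.3 CPM at day 0, 8.18, 78.2 and 15.9 CPM at day 4, and 5.86, 4.59 and 8.48 CPM at day 8. The day 8 libraries all lay below those of day 0, while the day 4 libraries spread on both sides of day 0, with replicate 2 the highest of the 9. Ccnd1 fell at day 8 to 6.31 ± 1.98 CPM, against 37.6 ± 7.34 CPM at day 0, a log2 change of -2.57 (SE 0.68, adjusted p = 0.00681), or 5.94-fold lower. At day 4 it did not pass the test (-0.14, SE 0.63, adjusted p = 0.865), and without replicate 2 it fell by 1.64 (adjusted p = 0.000759); without day 4 replicate 1 or 3 the change was 0.33 or 0.21. Its fall at day 8 against day 4 (-2.43, SE 0.68, adjusted p = 0.028) was -0.98 (adjusted p = 0.0403) without day 4 replicate 2. The call was lost when any library of day 8 was left out, with adjusted p of 0.0917, 0.102 and 0.0507 for replicates 1, 2 and 3.

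Ccnd2 (cyclin D2, ENSMUSG00000000184, chromosome 6) had 511, 373 and 479 CPM at day 0, 269, 367.5 and 315 CPM at day 4, and 237, 133 and 185 CPM at day 8. The 3 days did not overlap, with each later day below the earlier. It fell at day 8 to 185 ± 52.2 CPM, against 454 ± 71.9 CPM at day 0 (log2 change -1.30, SE 0.22, adjusted p = 0.000502). At day 4 it stood at 317 ± 49.4 CPM and missed the threshold against day 0 (-0.52, SE 0.22, adjusted p = 0.0674), and passed it without day 4 replicate 2 (-0.64, adjusted p = 0.0295), without day 8 replicate 1 (0.046) or without day 8 replicate 2 (0.0367). It also passed with total counts (-0.84, adjusted p = 0.0148), DESeq2 (0.0406), no filter (0.0491) and only the 2 days compared (0.0422). The fall at day 8 against day 4 (-0.78, SE 0.22, adjusted p = 0.0299) was -0.71 (0.0396) without day 4 replicate 2, and was lost when day 4 replicate 3 was left out (0.075), and when replicate 2 or 3 of day 8 was (0.087 and 0.0734).

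Ccnd3 (cyclin D3, ENSMUSG00000034165, chromosome 17) had 111, 116 and 123 CPM at day 0, 237, 217 and 255 CPM at day 4, and 146, 189 and 201 CPM at day 8. No library of day 4 or day 8 reached down to day 0, and those of day 4 were the highest. Ccnd3 rose to 236 ± 19.0 CPM at day 4, against 117 ± 6.0 CPM at day 0 (log2 change 1.02, SE 0.15, adjusted p = 0.000216), and by 1.08 without day 4 replicate 2. At day 8 it averaged 178 ± 29.0 CPM and was also higher than at day 0 (0.61, SE 0.15, adjusted p = 0.00387), a call lost with total-count scaling (0.25, adjusted p = 0.146). Day 8 against day 4 did not pass (-0.41, SE 0.15, adjusted p = 0.0684), and passed without day 4 replicate 2 (-0.52, adjusted p = 0.0206).

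Divided by exon length, as RPKM, the CPM value per kilobase of exon, the 3 D cyclins together reached 69.6 ± 9.03 RPKM at day 0, 67.9 ± 11.7 RPKM at day 4 (61.6 without replicate 2) and 41.3 ± 4.14 RPKM at day 8. Their make-up shifted at the same time. Ccnd2 supplied 69.2% ± 2.49 of this sum at day 0, 49.7% ± 1.12 at day 4 and 47.1% ± 10.3 at day 8. Ccnd3 supplied 16.8%, 22.4% and 18.9% in the day 0 libraries, 47.1%, 30.8% and 44.1% at day 4, and 38.6%, 58.8% and 51.6% at day 8. Every later library thus held a larger Ccnd3 share than any day 0 library. Ccnd1 made up 11.4% ± 0.952 of the sum at day 0, 9.60% ± 9.63 of it at day 4 and 3.21% ± 0.751 at day 8. At day 4 it was 20.6% in replicate 2, against 3.03% and 5.11% in the others. With the longest transcript in place of all exons as the length, the Ccnd3 shares of days 0, 4 and 8 were 27.3%, 51.5% and 60.1%. These shares carry no test.

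**Figure D2:**
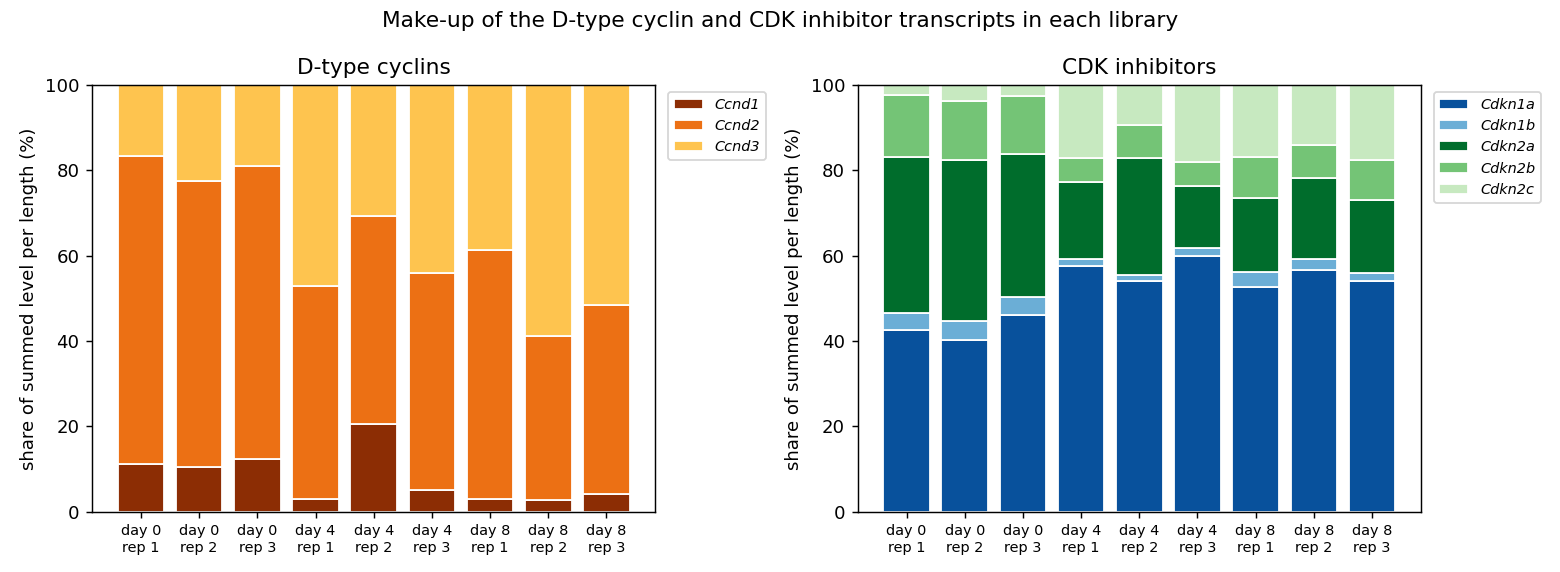
Share of each gene in the summed RPKM of the D cyclins and of the CDK inhibitors, in percent, with 1 stacked bar for each of the 9 libraries. The Ccnd3 share is 30.8% to 58.8% at the later days and 16.8% to 22.4% at day 0, and the Cdkn2c share of the inhibitors is at least 9.45% at the later days and at most 3.69% at day 0.

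Cdk4 and Cdk6 encode the catalytic partners of the D cyclins. Cdk4 (ENSMUSG00000006728, chromosome 10) had 400.1, 425 and 414 CPM at day 0, 203, 364.5 and 229 CPM at day 4, and 188, 223 and 223 CPM at day 8. All later libraries lay below day 0, with day 4 replicate 2 the nearest to it. Cdk4 fell to 266 ± 86.6 CPM at day 4 and 211 ± 19.9 CPM at day 8, against 413 ± 12.6 CPM at day 0. The log2 change was -0.64 (SE 0.20, adjusted p = 0.022) at day 4 and -0.97 (SE 0.21, adjusted p = 0.00189) at day 8. The day 4 change was -0.93 (adjusted p = 5.04e-05) without day 4 replicate 2, and missed the threshold when replicate 2 of day 0 was left out (0.0547), or replicate 1 or 3 of day 4 (0.0785 and 0.0915). Day 8 against day 4 did not pass (-0.33, SE 0.20, adjusted p = 0.261), nor without day 4 replicate 2 (-0.09, adjusted p = 0.65).

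Cdk6 (ENSMUSG00000040274, chromosome 5), whose product restrains the beiging of white fat in mice, had 7.17, 5.86 and 7.93 CPM at day 0, 8.22, 6.42 and 10.2 CPM at day 4, and 8.40, 7.34 and 9.39 CPM at day 8. The days overlapped throughout. Its log2 change was 0.25 (SE 0.22, adjusted p = 0.365) at day 4 and 0.26 (SE 0.22, adjusted p = 0.315) at day 8 against day 0; the day 4 value was 0.40 (adjusted p = 0.125) without replicate 2. With TMM both were above 0, and they became -0.086 and -0.095 with total-count scaling, so no direction was established. In RPKM, Cdk6 made up 0.392% ± 0.0649 of the Cdk4 and Cdk6 sum at day 0, 0.788% ± 0.333 at day 4 and 0.919% ± 0.140 at day 8. Their sum was 128 ± 3.85 RPKM at day 0, 82.3 ± 26.6 RPKM at day 4 (67.2 without replicate 2) and 65.6 ± 6.12 RPKM at day 8. For Cdk6, day 8 against day 4 gave 0.02 (SE 0.22, adjusted p = 0.966), and -0.19 (adjusted p = 0.56) without that library. The Cdk6 share rests on exon lengths, 13989 bases for Cdk6 and 3249 for Cdk4. Their coding lengths are closer (978 and 909 bases) and would give Cdk6 a larger share, which was not calculated.

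Among the INK4 inhibitors, Cdkn2c (p18, ENSMUSG00000028551, chromosome 4) had the largest change of the 10 genes at day 4 against day 0. At day 8 against day 0 its change (2.56) came just after that of Ccnd1 (-2.57) in size. Cdkn2c had 20.4, 25.2 and 20.9 CPM at day 0, 177, 104 and 186 CPM at day 4, and 129, 128 and 134 CPM at day 8. Day 0 lay far below every later library, of which day 4 replicate 2 was the lowest. The level was 156 ± 45.1 CPM at day 4 and 131 ± 3.22 CPM at day 8, against 22.2 ± 2.64 CPM at day 0. Cdkn2c thus rose 7.03-fold at day 4 (log2 change 2.81, SE 0.21, adjusted p = 2.63e-06) and 5.89-fold at day 8 (2.56, SE 0.21, adjusted p = 4.33e-06), and the day 4 change was 3.04 without replicate 2. Day 8 against day 4 did not pass (-0.26, SE 0.20, adjusted p = 0.373), and was a fall without day 4 replicate 2 (-0.53, adjusted p = 0.00952).

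Cdkn2a and Cdkn2b, in contrast, fell at day 8. Cdkn2a (ENSMUSG00000044303) and Cdkn2b (p15, ENSMUSG00000073802) are neighbours on chromosome 4. Cdkn2a yields both p16Ink4a and p19Arf, which counts per gene cannot split, and its loss promotes the browning of fat in mice. Cdkn2a had 135, 112 and 117 CPM at day 0, 81.4, 131 and 65.5 CPM at day 4, and 57.7, 76.3 and 57.6 CPM at day 8. Day 8 lay below day 0 in every library, while day 4 replicate 2 stood within the day 0 range. At day 8 it fell to 63.8 ± 10.8 CPM, against 121 ± 11.7 CPM at day 0 (log2 change -0.93, SE 0.23, adjusted p = 0.00515). At day 4 the change of -0.39 (SE 0.23, adjusted p = 0.175) did not pass, and was -0.72 (adjusted p = 0.00167) without replicate 2 and -0.70 (0.0323) with total-count scaling. Day 8 against day 4 did not pass (-0.54, SE 0.23, adjusted p = 0.117), nor without day 4 replicate 2 (-0.26, adjusted p = 0.248).

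Cdkn2b had 62.7, 49.3 and 56.2 CPM at day 0, 29.5, 44.3 and 28.9 CPM at day 4, and 38.3, 36.4 and 36.8 CPM at day 8. All later libraries lay below day 0, and day 4 replicate 2 was again the closest. It fell to 34.2 ± 8.71 CPM at day 4 (-0.71, SE 0.18, adjusted p = 0.00582) and 37.1 ± 1.00 CPM at day 8 (-0.59, SE 0.17, adjusted p = 0.0121), against 56.1 ± 6.67 CPM at day 0. Without day 4 replicate 2 the day 4 change was -0.94. Day 8 against day 4 did not pass (0.12, SE 0.17, adjusted p = 0.655), nor without that library (0.29, adjusted p = 0.134). Of the summed RPKM of Cdkn2a, Cdkn2b and Cdkn2c, Cdkn2a held 68.0% ± 0.563 at day 0, 48.0% ± 11.9 at day 4 and 41.8% ± 4.37 at day 8, and Cdkn2c held 5.48% ± 1.09, 36.9% ± 13.8 and 37.6% ± 2.87. The Cdkn2c share at day 4 was 21.3% in replicate 2, against 42.1% and 47.5% in the others. The sum of the 3 was 152 ± 13.8 RPKM at day 0, 162 ± 18.5 RPKM at day 4 (151 without replicate 2) and 130 ± 7.96 RPKM at day 8. With Cdkn2d, the INK4 gene outside the 10, it was 161 ± 14.5, 178 ± 16.5 and 162 ± 21.4 RPKM. Of that sum Cdkn2a held 64.4%, 43.7% and 33.4% and Cdkn2c 5.19%, 33.3% and 30.3%. All these shares used exon lengths, and other lengths were not tried for the INK4 sums. In the sum of all 5 inhibitors, coding length put Cdkn2c above Cdkn2a at day 8 (14.7% against 7.07%). The longest transcript did not (12.1% against 16.1%), so the order of these genes depends on the length.

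The CIP/KIP inhibitors diverged. Cdkn1a (p21, ENSMUSG00000023067, chromosome 17) had 475, 363 and 489 CPM at day 0, 786, 787 and 813 CPM at day 4, and 534, 685 and 546 CPM at day 8. The 3 day 4 libraries were close together and above all others, replicate 2 included, and those of day 8 lay above day 0. It rose to 796 ± 15.2 CPM at day 4, against 442 ± 69.3 CPM at day 0 (log2 change 0.85, SE 0.17, adjusted p = 0.00154), and by 0.85 without day 4 replicate 2. The day 8 level of 588 ± 84.2 CPM gave 0.41 (SE 0.17, adjusted p = 0.0485), just past the threshold. That call was lost with total-count scaling (0.04, adjusted p = 0.818), with no filter on low counts (0.0788), without day 0 replicate 1 (0.0833), 2 (0.213) or 3 (0.0635), without day 4 replicate 1 (0.0539) or 3 (0.0655), and without day 8 replicate 2 (0.15) or 3 (0.0612). Day 8 against day 4 did not pass (-0.44, SE 0.17, adjusted p = 0.0805), and passed without day 4 replicate 2 (-0.50, adjusted p = 0.0413).

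Cdkn1b (p27, ENSMUSG00000003031, chromosome 6) had 54.0, 50.7 and 56.9 CPM at day 0, 28.1, 27.2 and 31.9 CPM at day 4, and 44.0, 39.0 and 23.0 CPM at day 8. Day 4 and day 8 lay below day 0 in every library, and the day 8 libraries ranged on both sides of day 4. It fell to 29.1 ± 2.47 CPM at day 4 (-0.89, SE 0.21, adjusted p = 0.00441) and 35.3 ± 11.0 CPM at day 8 (-0.61, SE 0.21, adjusted p = 0.0243), against 53.9 ± 3.11 CPM at day 0. Without day 4 replicate 2 the day 4 change was -0.84. The day 8 call was lost when replicate 1 or 3 of day 0 was left out (adjusted p = 0.052 and 0.0665), and when replicate 3 of day 8 was (-0.37, adjusted p = 0.0518). Without day 8 replicate 3, day 8 was higher than day 4 (0.51, adjusted p = 0.0387), where the full comparison gave 0.28 (SE 0.21, adjusted p = 0.35) and the one without day 4 replicate 2 gave 0.18 (adjusted p = 0.593).

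**Figure D3:**
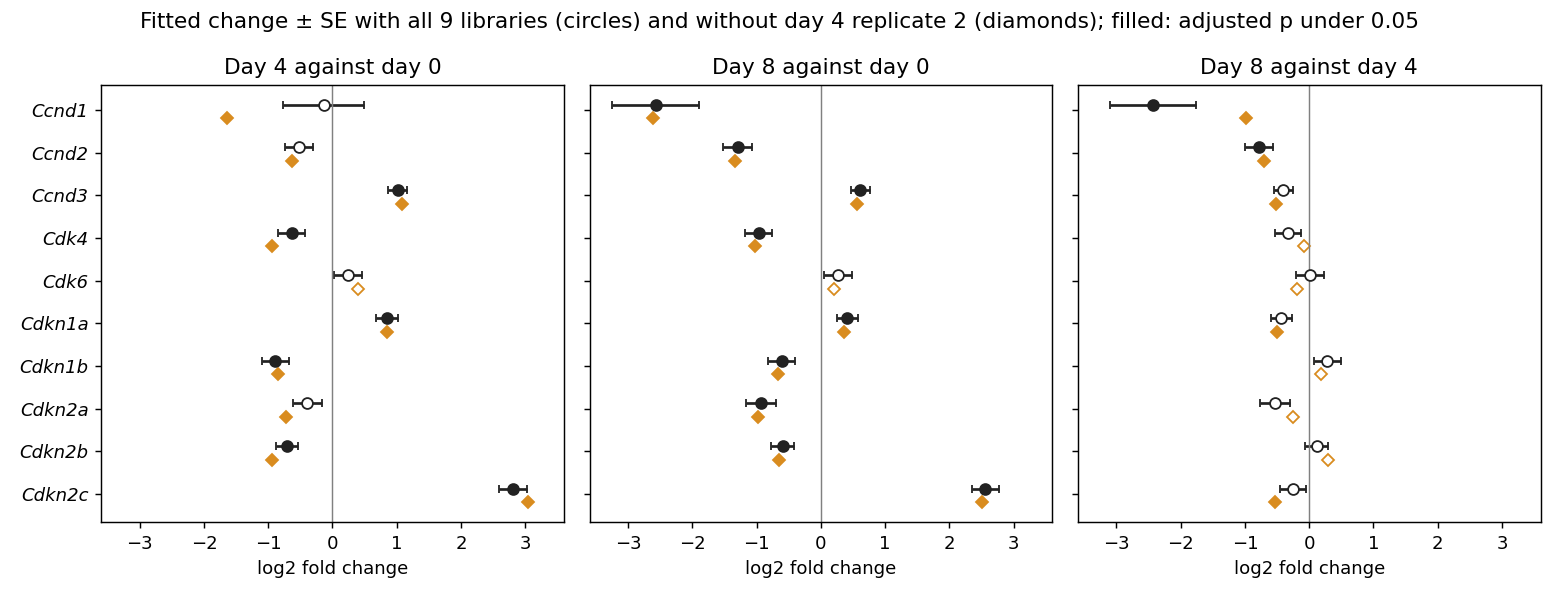
Log2 fold change of each of the 10 genes in the 3 comparisons, with all 9 libraries (circles, bars of 1 SE) and without day 4 replicate 2 (diamonds), filled where the adjusted p was under 0.05. Cdkn2c lies at 2.81 and 2.56 against day 0, and Ccnd1 at day 4 moves to -1.64 from -0.14 when that library is left out.

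With all exons as the length, the order of the 10 transcripts changed over the days. At day 0, Cdk4 at 127 ± 3.89 RPKM and Cdkn1a at 125 ± 19.5 RPKM overlapped, as did Cdkn1a and Cdkn2a at 104 ± 9.98 RPKM; Cdkn2c was eighth at 8.25 ± 0.982 RPKM, overlapping Ccnd1 at 7.98 ± 1.56 RPKM. At day 4, Cdkn1a led without overlap at 224 ± 4.28 RPKM, and Cdk4 at 81.8 ± 26.7, Cdkn2a at 79.0 ± 29.0 and Cdkn2c at 58.0 ± 16.8 RPKM overlapped in turn. Without replicate 2 these 3 averaged 66.5, 62.7 and 67.6 RPKM. In replicates 1 and 3 Cdk4 had 62.5 and 70.6 RPKM and Cdkn2c 65.9 and 69.3 RPKM, so they overlapped and their order was not settled. At day 8, Cdkn1a at 166 ± 23.7 RPKM led without overlap, before Cdk4 at 65.0 ± 6.12, Cdkn2a at 54.5 ± 9.20 and Cdkn2c at 48.6 ± 1.20 RPKM, each of which overlapped its neighbour. Ccnd3 at 20.3 ± 3.30 RPKM and Ccnd2 at 19.6 ± 5.55 RPKM overlapped at day 8, whereas at day 0 they were 13.3 ± 0.684 and 48.3 ± 7.64 RPKM. Cdk6 was last on every day, at 0.499 ± 0.0748, 0.593 ± 0.136 and 0.599 ± 0.0733 RPKM. The 5 inhibitors summed to 288 ± 30.7 RPKM at day 0, 392 ± 15.4 RPKM at day 4 (383 without replicate 2) and 303 ± 32.3 RPKM at day 8, of which Cdkn1a held 43.0% ± 3.00, 57.2% ± 2.94 and 54.5% ± 1.99. Levels per length follow the length used. With coding length in place of all exons, Cdkn2a held 16.6% of the inhibitor sum at day 0, where all exons gave 36.0%. At day 8 coding length gave Cdkn2a 7.07% and Cdkn2c 14.7%, where all exons gave 17.9% and 16.2%, so their order reversed. At day 0 Cdkn1a had more CPM than Cdk4 (442 against 413) and a shorter coding length (477 against 909 bases). With coding length Cdkn1a thus already stood above Cdk4 at day 0.

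Patterns over the 9 libraries were compared by the mean absolute difference of centred log2 CPM, which is smaller the more alike 2 genes are. Among the 10 genes the closest pairs were Ccnd3 and Cdkn1a (0.16), Cdk4 and Cdkn2a (0.18), and Cdk4 and Cdkn2b (0.20). Of all tested genes, Letm1 was nearest to Cdkn2c (0.08), Ptgr1 to Cdk4 (0.05), Zdhhc7 to Ccnd3 (0.05), Sgce to Cdkn2b (0.06) and Tmem109 to Cdkn1a (0.08). Ccnd1 had the least close neighbour, Slco3a1 at 0.24. Its own mean absolute deviation over the libraries was the largest of the 10 genes, at 1.23, and that of Cdk6 the smallest, at 0.20. A difference of given size thus means less closeness for a gene that varies little. For Ccnd2 the nearest was Srsf1 (0.10), for Cdk6 Tarbp1 (0.09), for Cdkn1b Spata5 (0.14) and for Cdkn2a Gm9616 (0.09).

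Exons of some of these genes overlap a gene on the opposite strand in GENCODE M21, and the strand setting of the counting is not given in the sources used here. Ccnd1 shares 1100 of 4709 exon bases with LTO1, Cdk4 641 of 3249 with Tspan31 and Ccnd3 361 of 8775 with Bysl, so a part of these counts could belong to either gene. Bysl rose by 1.03 at day 4 and 0.51 at day 8 against day 0, beside 1.02 and 0.61 for Ccnd3. LTO1 fell by 0.51 and 0.62. Tspan31 was called at neither day (-0.04 and -0.14). How far the overlaps bear on the changes was not tested. Of its 9409 exon bases, Ccnd2 shares 368 with 9330179D12Rik and 372 with Gm43126. Cdk6 shares 368 of 13989 with Gm17590, and Cdkn1a 273 of 3553 with AC167363.2, all on the opposite strand. The same limit holds for their counts. No such overlap was found for Cdkn1b, Cdkn2a, Cdkn2b or Cdkn2c.

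Downstream of the D cyclins, 20 further genes of the G1 to S machinery were followed at day 8 against day 0. Of these 7 were higher and 8 lower (median log2 change -0.09), 75% called beside 63.4% of all genes. The split depended on the settings, with 5 higher and 10 lower under total-count scaling and 6 and 6 with no filter. Rb1, the retinoblastoma protein that CDK4 and CDK6 phosphorylate, had 8.30, 7.58 and 7.01 CPM at day 0, 47.3, 19.2 and 37.4 CPM at day 4, and 83.3, 56.0 and 64.2 CPM at day 8. Its libraries lay higher at each later day without overlap, and the log2 change at day 8 against day 0 was 3.15 (SE 0.30, adjusted p = 1.07e-05). E2f2, an activating E2F, rose to 3.30 ± 0.506 CPM at day 8, against 0.637 ± 0.216 CPM at day 0 (2.36, SE 0.33, adjusted p = 0.000128). The S phase cyclin Ccna2 fell by 2.86 (SE 0.32), and the repressive factors E2f8 and E2f7 fell by 2.74 (SE 0.64) and 2.58 (SE 0.53). Levels of E2f7 and E2f8 at day 8 were low, at 0.458 ± 0.274 and 0.587 ± 0.587 CPM. The remaining INK4 and CIP/KIP genes, singled out after their values were seen, were also in this list. Cdkn2d (p19Ink4d) had 14.9, 13.2 and 12.5 CPM at day 0, 33.5, 19.2 and 24.0 CPM at day 4, and 45.6, 75.3 and 33.4 CPM at day 8, and was higher at day 8 than at day 0 (1.93, SE 0.29, adjusted p = 0.000224). Cdkn1c (p57) had 5.66, 9.52 and 14.5 CPM at day 0, 35.3, 62.6 and 61.0 CPM at day 4, and 7.32, 12.9 and 20.1 CPM at day 8, so that day 4 stood above both other days in every library. It rose by 2.42 (SE 0.41, adjusted p = 0.000655) at day 4 against day 0 and fell by 1.98 (SE 0.41, adjusted p = 0.00803) at day 8 against day 4.

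**Figure D4:**
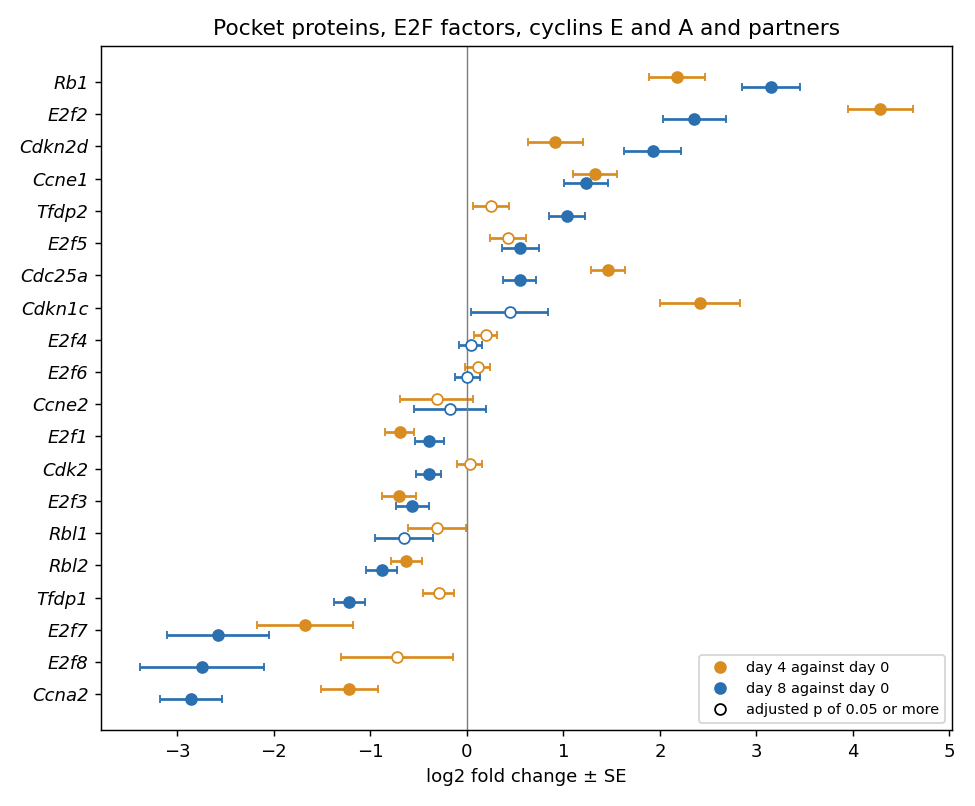
Log2 fold change (bars of 1 SE) of the 20 further genes of the G1 to S machinery at day 4 and at day 8 against day 0, ordered by the day 8 value, with open circles where the adjusted p was 0.05 or more. At day 8 Rb1 is the highest at 3.15 and Ccna2 the lowest at -2.86.

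Of 16 genes that act on D cyclin and p27 turnover or on CDK activation, 5 were higher and 3 lower at day 8 against day 0 (median -0.15), 50% called beside 63.4% of all genes. With total-count scaling 2 were higher and 11 lower, and with DESeq2 5 and 5. Without day 4 replicate 2, 4 were higher and 6 lower, so the balance depended on the settings. The count of higher genes was 3 without day 0 replicate 1 or 3. Skp2, the F-box protein that marks p27 for destruction, fell to 1.32 ± 0.687 CPM at day 8, against 8.53 ± 1.44 CPM at day 0 (-2.68, SE 0.45, adjusted p = 0.000418), beside the lower Cdkn1b transcript. Fbxo31, which targets cyclin D1, rose by 1.24 (SE 0.23) and the ubiquitin ligase scaffold Cul3 by 1.05 (SE 0.24).

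Of 20 E2F target genes, 1 was higher and 13 lower at day 8 against day 0 (median -1.21), where 33.5% and 29.9% of all genes were higher and lower. Mybl2, a transcription factor of S phase and mitosis, fell by 3.00 (SE 0.45), and Mcm5, a subunit of the replicative helicase, fell to 2.41 ± 0.721 CPM at day 8, against 16.8 ± 2.80 CPM at day 0. Thymidine kinase Tk1 fell by 2.29 (SE 0.32). The exception was Ung, a uracil-DNA glycosylase, at 37.0 ± 7.79 CPM at day 8 against 2.97 ± 0.785 CPM at day 0 (3.64, SE 0.33, adjusted p = 7.2e-06). At day 4 against day 0, 2 were higher and 12 lower, beside 28.6% and 26% of all genes. The lower count was 7 without day 0 replicate 1 or 2, 5 without day 4 replicate 1, 4 without day 4 replicate 3 and 13 without day 4 replicate 2. All 10 mitosis markers were lower at day 8 than at day 0 (median -2.14), among them the motor Kif11, the kinase Plk1 and Cdc20, which fell by 2.72, 2.68 and 2.28. Of the same 10, 6 were lower at day 4, beside 26% of all genes. The count was 3 with day 0 replicate 2 or day 4 replicate 1 left out, 2 with day 4 replicate 3 left out and 7 with day 4 replicate 2 left out. Over all genes, 3806 were lower at day 4 in full. They were 3110 or 3230 without day 0 replicate 1 or 2, and 3185, 4550 or 2916 without day 4 replicate 1, 2 or 3.

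Of 20 p53 target genes other than Cdkn1a, 4 were higher and 10 lower at day 8 against day 0 (median -0.52), beside 33.5% and 29.9% of all genes; with total-count scaling 1 was higher. Phlda3, an AKT inhibitor, rose to 673 ± 80.5 CPM at day 8, against 255 ± 21.8 CPM at day 0 (1.40, SE 0.16, adjusted p = 3.56e-05), and the apoptotic gene Bbc3 rose by 0.75. The apoptotic gene Pmaip1 fell by 3.76 (SE 0.40), the kinase Plk2 by 2.83 (SE 0.40) and the receptor Eda2r by 2.14 (SE 0.36). Of 6 subunits or regulators of the DREAM complex, which represses cell cycle genes in resting cells, 3 were higher and 1 lower, beside the same shares of all genes. Lin37 rose by 1.41 (SE 0.21), and the number higher was 1 with total-count scaling, with no filter, with only the 2 days compared, and with any 1 library of day 0 or day 4, or day 8 replicate 1, left out.

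Of 22 growth signal regulators upstream of D cyclins or CDK inhibitors, 6 were higher and 9 lower at day 8 against day 0 (median -0.13). That is 68.2% of them called, near the 63.4% of all genes. With total-count scaling 4 were higher and 11 lower. Ccn2, a target of YAP and TEAD factors, fell to 33.9 ± 14.3 CPM at day 8, against 445 ± 121 CPM at day 0 (-3.71, SE 0.61, adjusted p = 0.000371), and Tead1 itself and the β-catenin gene Ctnnb1 fell by 2.15 (SE 0.21) and 1.94 (SE 0.20). Cebpa, an adipogenic factor that stops proliferation, rose to 811 ± 111 CPM at day 8, against 47.3 ± 1.45 CPM at day 0 (4.10, SE 0.21, adjusted p = 2.63e-07), and the AP-1 subunit Fosl1 rose by 2.26 (SE 0.38). As a check of the cells, all 7 tested mature adipocyte markers and all 6 beige markers were higher at day 8 than at day 0. Of the precursor, macrophage and endothelial markers tested, 3 of 6, 1 of 6 and 4 of 5 were lower and none higher. Of all genes 29.9% were lower and 33.5% higher. Without day 8 replicate 1, 2 macrophage markers were higher and 1 lower. With the replicate number as a block 1 was higher and 2 lower, and the other settings gave none higher. No lymphocyte marker had enough counts to be tested.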

How the data were processed

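The authors deposited raw read counts per Ensembl gene, 1 column for each of the 9 libraries, unnormalized. Per the submitters' processing notes, the build was GRCm39 and the tools were HISAT2 and featureCounts. Libraries came from a stranded total RNA kit, per the labels' protocols. Versions, annotation release and strand setting are not given in the sources used here. Of 55359 genes, 30671 had no count.

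The tests used edgeR 4.0.16 under R 4.3.3: filterByExpr (minimum count 10, minimum total 15) kept 14649 genes, and all 9 libraries entered 1 quasi-likelihood fit with TMM scaling and no covariates, with 6 residual degrees of freedom. Tests were two-sided with Benjamini-Hochberg adjustment over all tested genes. The fit was also run on simulated counts, drawn from its own estimate of the spread, with changes set at day 8 only and in few genes. In these data most genes were called against day 0, so that run does not show how the fit behaves here. Alternatives were total-count scaling, DESeq2 1.42.0, no filter, only the 2 days compared, the replicate number as a block, and each library left out. Libraries of the same day differed by more than sampling noise (chi-square per degree of freedom 16.6 to 240), so none was taken for a repeat of another; this does not show that they were separate cultures. RPKM used exon lengths of GENCODE M21 (GRCm38, another build than the counts), whose coordinates served for exon overlaps but are not printed. Precision is limited by 3 libraries a day.

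The 10 genes and the lists of further genes were chosen with earlier results of these data known. The text names all 10 and the nearest gene to each by pattern. From each list it names up to 3 called genes in the commoner direction and up to 2 in the other. These have the largest change at day 8 against day 0. Markers are given as summed levels and as numbers called. Also named, outside this rule, are Cdkn2d, Cdkn1c, some precursor markers and the genes with overlapping exons.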

Additional observations from a re-analysis of the deposited data

How the results depend on the processing

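Of 420 values of the 10 genes under the alternatives, 369 kept their direction and their side of the threshold, 26 lost the call, 16 gained it and 9 changed sign without a call; the causes were not tested. The sign changes were of Cdk6 with total-count scaling (-0.086 at day 4 and -0.095 at day 8 against day 0, -0.0085 at day 8 against day 4), of Cdk6 at day 8 against day 4 with DESeq2 (-0.0030), with only the 2 days compared (-0.015), without day 4 replicate 2 (-0.19) and without day 8 replicate 3 (-0.07), and of Ccnd1 at day 4 against day 0 without day 4 replicate 1 (0.33) or 3 (0.21); with a library left out, these values ranged from -0.19 to 0.19 for Cdk6 and from -1.64 to 0.33 for Ccnd1. The number of the 10 genes called at day 8 against day 4, 2 in full, was 4 with DESeq2, 0 with only the 2 days compared and 0 to 5 with a library left out; over all genes 3285 were called in full, 1901 with only the 2 days compared and 1894 to 4185 with a library left out. With a library left out, 5 to 9 of the 10 genes (6613 to 9110 of all genes) were called at day 4 and 7 to 9 (8323 to 10111) at day 8 against day 0. Total-count scaling lowered the share of higher calls among all genes to 35.3% of 8704 at day 4 and 37.5% of 9676 at day 8, where TMM gave 52.4% of 7998 and 52.9% of 9290.

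Replicate numbers were not taken to pair the libraries, since same-numbered deviations from the day means did not all correlate above 0.1: they ran from -0.01 to 0.07 between days 4 and 0, from -0.13 to 0.06 between days 8 and 4 and from 0.09 to 0.27 between days 8 and 0. Between days 8 and 0 every library correlated best with its own number, with -0.18 to 0.04 for other numbers, a hint from the data and not the design. With the replicate number as a block, 6, 8 and 1 of the 10 genes were called in the 3 comparisons (8070, 9368 and 3105 of all genes), without Cdkn1a at day 8 against day 0 (adjusted p = 0.0736) and Ccnd1 at day 8 against day 4 (-2.06, adjusted p = 0.0869). The Cdk6 values against day 0 were about as large as their SE (0.22), so neither a rise nor a fall can be read from them.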
